A study of Mus musculus with 6 samples.

Results

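The genes of synaptic vesicles and transmitter release were examined in proliferating neural stem and progenitor cells of adult mice that either lacked or had active SIRT1, an NAD-dependent deacetylase. The 36 genes were chosen by name for their role at the presynaptic terminal, with earlier results of these data known. In all, 35 of them had a probe set paired with that gene alone, out of 19937 genes measured this way. Vamp2, which encodes the synaptobrevin of synaptic vesicles, is not reported because its probe set is paired with several genes. Where a gene had several probe sets, which was the case for Unc13a alone, the one with the highest mean over all arrays was used.

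The samples comprise 2 genotypes of the 129SV strain, each with 3 cultures labelled as biological replicates and 1 array per culture. The labels state no pairing across genotypes, so the pairs below are only cultures that share a replicate number. The Sirt1 inactive cultures (NestinCre;Sirt1lox/lox) came from mice carrying floxed Sirt1 alleles and Nestin-Cre, a Cre recombinase driven by the Nestin promoter, which is active in neural stem and progenitor cells. Per the labels, SIRT1 in them is not active. The control cultures (Sirt1lox/lox) came from mice with the same floxed alleles and no Cre, so effects of Cre and of SIRT1 cannot be told apart. All mice were 8 weeks old, and the cells were expanded as neurospheres in EGF and bFGF, plated on poly-D-lysine and harvested at passage 2 while still dividing. The sources used here do not give how many mice stand behind each culture, and the p-values measure the spread between these cultures.

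At a synapse, vesicles filled with transmitter by dedicated transporters are tethered by synapsins, docked and primed at the active zone by Rab3, RIM and Munc13 proteins, and fused when calcium-bound synaptotagmin acts on the assembled SNARE proteins. Clathrin adaptors, amphiphysin and dynamin then retrieve the membrane. Much of this set is expressed mainly in neurons and neuroendocrine cells, and several members serve vesicle traffic in other cells too, so progenitor cultures without mature synapses can hold some of these transcripts.

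Values are log2 expression values made by the authors with RMA, which removes background, brings arrays to a common scale and gives each probe set a single value. Differences are Sirt1 inactive minus control on this log2 scale. Array medians lay between 7.36 and 7.39 and the lower quartiles between 5.78 and 5.83. Sirt1 itself read 8.26, 8.33 and 8.25 in the Sirt1 inactive cultures, against 8.72, 8.78 and 8.55 in control. Its difference was -0.41 (SE 0.08), which missed the adjusted threshold of 0.05 (limma, adjusted p = 0.959). The sources used here do not say whether its probes lie in the deleted part, so this value is a weak check of the labels. The progenitor markers Nes and Sox2 were bright in both genotypes, with Nes between 11.57 and 11.68 in Sirt1 inactive and between 11.55 and 11.70 in control cultures. Control replicate 3 stood apart, with a median absolute distance of 0.125 to the mean of the other arrays, against 0.070 to 0.0996 for the other five. It was the highest of the 6 arrays for 37.2% of all tested probe sets.

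No release gene passed the test, but most read lower without active SIRT1. In the limma fit over 22961 probe sets, 0 of 35 members had an adjusted p under 0.05, where the share over all probe sets was 0.0%. The members' adjusted p-values lay between 0.959 and 1.0. At an unadjusted p under 0.05 there were 3 members, Rab3c, Syt1 and Syn1, all with lower values. The shares over all probe sets were 2.63% lower, 0.984% higher and 3.61% in either direction. With the replicate number as a block, which uses the differences within same-numbered cultures, 8 members reached an unadjusted p under 0.05, all lower. Over all probe sets 5.08% were lower and 2.5% higher by this measure, and again 0 members passed after adjustment, where the share over all probe sets was 0.0% (limma, smallest adjusted p among members 0.51).

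The difference was below 0 for 31 of 35 members, or 88.6%, against 60.1% of all tested probe sets. Syngr3, counted among the 31, was level to 4 decimals. As the list was chosen with earlier results of these data known, this contrast is a description and not a test. The median difference was -0.08 for the members and -0.02 for all probe sets. Because these are bulk RNA values, fewer cells that express a gene and less RNA per cell cannot be told apart. Without control replicate 3, 25 of 35 members were below 0, or 71.4%, against 53.7% of all probe sets, with a median of -0.05 against -0.01. In the plot of differences by role, the members of all 6 role groups lie mostly left of 0, and the transporters lie closest to it.

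**Figure D1:**
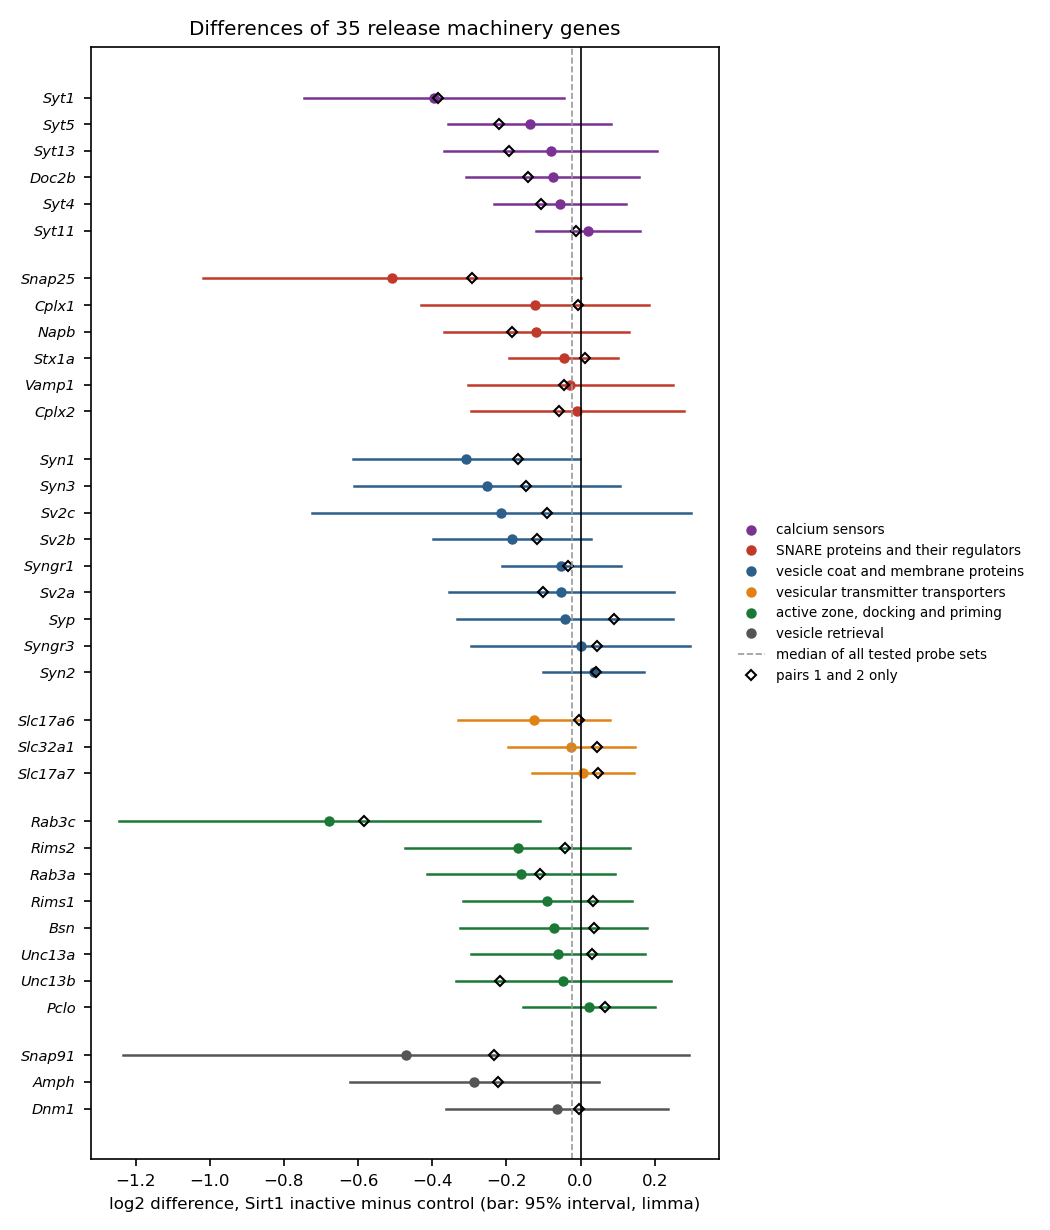
Differences of the 35 release machinery genes on the log2 scale, Sirt1 inactive minus control, with limma's 95% intervals as bars, grouped and coloured by role; open diamonds give the difference in pairs 1 and 2 alone and the dashed line the median of all tested probe sets (-0.02). Of the 35 points 31 lie below 0, with Rab3c (-0.68) and Snap25 (-0.51) farthest out.

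Rab3c had the largest difference of the set. Rab3c and Rab3a are small GTPases that ride on synaptic vesicles and bind RIM at the active zone. Rab3c (probe set 10412066) read 5.85, 5.87 and 6.36 in Sirt1 inactive cultures, against 6.34, 6.55 and 7.22 in control. Only Sirt1 inactive replicate 3 reached into the control range, and it exceeded control replicate 1 alone. Rab3c averaged 6.03 ± 0.29 in Sirt1 inactive and 6.70 ± 0.46 in control cultures (SD, n = 3 each), a difference of -0.68 (SE 0.24, 95% interval -1.24 to -0.11), or 0.625 times control. The gap was -0.49, -0.68 and -0.87 in the 3 same-numbered pairs, the same direction in each. It did not pass (limma, adjusted p = 0.959, and 0.51 with the block), and the exact two-sided permutation test of 3 against 3 gave p = 0.2, where the smallest it allows is 0.1. The difference was -0.42 without control replicate 3 and -0.58 in pairs 1 and 2 alone, the fit in which Rab3c had the smallest adjusted p of the set (limma, 0.092). Both low Sirt1 inactive values lie close to the arrays' lower quartile, where array values respond less to the amount of RNA.

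Rab3a read 8.77, 8.66 and 8.88 in Sirt1 inactive cultures, against 8.85, 8.80 and 9.14 in control. The groups overlapped, and the difference was -0.16 (SE 0.11), or -0.05 without control replicate 3. The other members of the active zone group differed by less than 0.2 in either direction. They include the RIM scaffolds Rims1 (-0.09) and Rims2 (-0.17, or -0.04 without control replicate 3), the large cytomatrix proteins Bassoon (Bsn, -0.07) and Piccolo (Pclo, 0.02), and the priming factors Unc13a (-0.06) and Unc13b (-0.05). In control replicate 3, 6 of the 8 genes of this group had their highest value, and all 8 varied more among control than among Sirt1 inactive cultures.

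The 3 probe sets of Unc13a, which encodes the main Munc13 priming factor of brain synapses, gave unlike differences. The brightest, used above, differed by -0.06 and the next by -0.09, with overlapping groups. The dimmest (probe set 10579550) read 6.84, 6.77 and 6.71 in Sirt1 inactive cultures, against 6.89, 7.10 and 7.22 in control, with no overlap. Its difference was -0.29 (SE 0.09; limma, adjusted p = 0.959). The sources used here do not say which part of the transcript each probe set reads.

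Among the synaptotagmins and other calcium sensors, Syt1 was the one member with a sizeable difference. Syt1, the fast calcium sensor of synaptic vesicle fusion, read 7.33, 7.11 and 7.58 in Sirt1 inactive cultures, against 7.65, 7.57 and 7.99 in control. The groups met at one point only, where Sirt1 inactive replicate 3 and control replicate 2 nearly coincided. The pairs differed by -0.32, -0.46 and -0.41. The overall difference was -0.39 (SE 0.15, 95% interval -0.75 to -0.04; limma, adjusted p = 0.959, and 0.51 with the block), and the exact two-sided permutation p was 0.2. It was -0.27 without control replicate 3 and -0.39 in pairs 1 and 2 alone.

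Syt5, another calcium-binding synaptotagmin, read 7.89, 7.78 and 7.91 in Sirt1 inactive cultures, against 7.93, 8.19 and 7.88 in control. The difference of -0.14 (SE 0.09) was -0.04 without control replicate 2. Doc2b, a high-affinity calcium sensor linked to spontaneous release, differed by -0.08, and the synaptotagmins Syt4, Syt11 and Syt13 by -0.06, 0.02 and -0.08. Syt11, which does not act as a calcium sensor, was the steadiest of the group, with all 6 arrays between 12.32 and 12.45. Unlike the set as a whole, these 6 genes were not high in control replicate 3, which had the highest value for Syt1 alone, and in pair 3 only Syt1 was below 0.

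Of the SNARE proteins and their regulators, Snap25 carried the largest difference. Snap25 encodes a plasma membrane SNARE that pairs with syntaxin and synaptobrevin, and it read 8.56, 8.40 and 8.53 in Sirt1 inactive cultures, against 8.52, 9.02 and 9.48 in control. The Sirt1 inactive cultures were close together while the control cultures spread over almost 1 log2 unit, with control replicate 1 inside the Sirt1 inactive range. The difference was -0.51 (SE 0.22, 95% interval -1.02 to 0.00; limma, adjusted p = 0.959). It was 0.04 in pair 1, -0.62 in pair 2 and -0.94 in pair 3, and -0.27 without control replicate 3.

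Napb, the neuronal adaptor that helps take spent SNARE complexes apart, read 7.49, 7.85 and 7.86 in Sirt1 inactive cultures, against 7.83, 7.88 and 7.85 in control. Its difference of -0.12 (SE 0.11) rested on Sirt1 inactive replicate 1, and without that array it was 0.0035. The syntaxin Stx1a differed by -0.05, with all 6 arrays between 7.63 and 7.79. The vesicle SNARE Vamp1 differed by -0.03, and the complexins Cplx1 and Cplx2, which bind assembled SNAREs, by -0.12 and -0.01. Without control replicate 3 the difference of Cplx1 was -0.01 and that of Cplx2 -0.12.

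**Figure D2:**
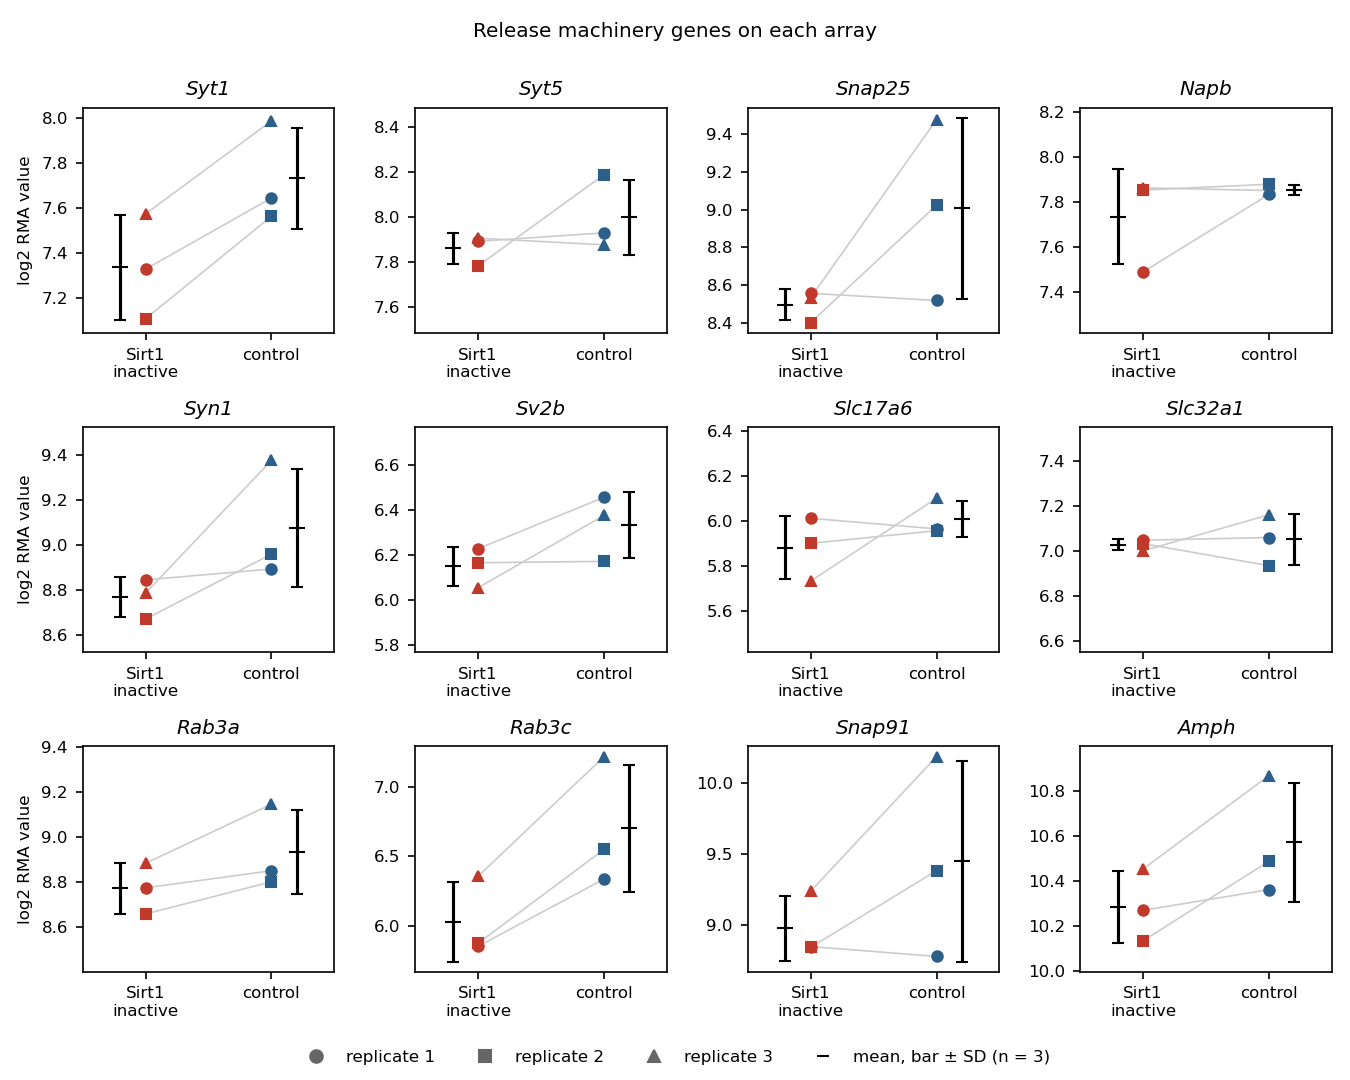
Log2 RMA values of 12 genes on each array, with Sirt1 inactive left and control right; symbols mark the replicate number, grey lines join same-numbered cultures, and bars give mean ± SD (n = 3). Rab3c and Syt1 slope the same way in all 3 pairs, while Snap25 and Snap91 are nearly level in pair 1 and steepest in pair 3.

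Syn1 was the single member whose groups did not overlap. Over all tested probe sets 9.33% had no overlap, 6.71% with lower and 2.62% with higher values, so the members' share was not above the background. Synapsins coat vesicles and hold them in the reserve pool. Syn1 (probe set 10603843) read 8.85, 8.67 and 8.79 in Sirt1 inactive cultures, against 8.89, 8.96 and 9.38 in control. The gap between the groups was narrow, and in pair 1 the cultures differed by -0.05 only. The difference was -0.31 (SE 0.13; limma, adjusted p = 0.959), or 0.807 times control, and its exact two-sided permutation p was 0.1, the lowest possible here. Without control replicate 3 it was -0.16.

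The other synapsins did not follow alike. Syn3 differed by -0.25 (SE 0.15), at 7.99, 7.88 and 8.12 in Sirt1 inactive and 7.99, 8.18 and 8.59 in control cultures, and by -0.08 without control replicate 3. Syn2 differed by 0.04 (95% interval -0.10 to 0.17), with every array between 9.94 and 10.04. Sv2b, one of the SV2 glycoproteins of the vesicle membrane, read 6.23, 6.17 and 6.05 in Sirt1 inactive cultures, against 6.46, 6.17 and 6.38 in control. Its difference was -0.18 (SE 0.09), the same direction in 3 of 3 pairs, with cultures of pair 2 differing by -0.005 only. Sv2c differed by -0.21 (SE 0.22), or -0.07 without control replicate 3, and Sv2a differed by -0.05. The abundant membrane proteins of the vesicle had differences near 0, with synaptophysin (Syp) at -0.04 and the synaptogyrins Syngr1 and Syngr3 at -0.05 and 0.00. For Syp and Syngr3 these values average pairs of opposite direction. Syp differed by 0.17, 0.01 and -0.31 in pairs 1, 2 and 3 (95% interval of its difference -0.33 to 0.25), and Syngr3 by 0.15, -0.06 and -0.09. Without control replicate 3 they differed by 0.10 and 0.11.

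Promoter sequence is shown for the 3 genes that reached an unadjusted p under 0.05. The windows are RefSeq's for GRCm38.p6 and give the 250 bases before an annotated start on the minus strand, Syn1 at chrX:20920919-20921168, Rab3c at chr13:110280207-110280456 and Syt1 at chr10:109010976-109011225, the upstream one of the 2 Syt1 starts in the table. Capitals mark a RE1-like match and a cAMP response element in Syn1; neither was found in the other windows shown.
Syn1: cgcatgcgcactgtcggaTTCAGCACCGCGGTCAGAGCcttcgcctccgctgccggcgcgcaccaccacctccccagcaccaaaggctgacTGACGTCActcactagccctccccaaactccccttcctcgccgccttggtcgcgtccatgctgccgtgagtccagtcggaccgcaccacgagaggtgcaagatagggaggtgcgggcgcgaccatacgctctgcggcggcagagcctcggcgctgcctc
Rab3c: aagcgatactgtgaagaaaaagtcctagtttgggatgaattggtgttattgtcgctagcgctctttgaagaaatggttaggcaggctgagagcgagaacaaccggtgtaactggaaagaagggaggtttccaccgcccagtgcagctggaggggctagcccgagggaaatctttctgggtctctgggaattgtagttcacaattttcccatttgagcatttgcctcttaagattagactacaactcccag
Syt1: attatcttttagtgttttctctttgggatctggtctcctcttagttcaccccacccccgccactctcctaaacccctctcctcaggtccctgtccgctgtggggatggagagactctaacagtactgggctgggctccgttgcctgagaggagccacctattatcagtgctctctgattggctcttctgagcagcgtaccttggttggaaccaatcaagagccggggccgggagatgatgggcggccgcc
RE1 is the element bound by REST, a repressor of neuronal genes outside neurons. It was searched on both strands as TTCAGCACC, any 2 bases and GGACAGCGC, with up to 2 mismatches over the 18 letters, an allowance chosen after the Syn1 window had been seen. The Syn1 match lies at positions -232 to -213 from the start, with 0 mismatches in the left part and 2 in the right. Windows from 250 bases before to 50 after a start were available for 27 of the 35 members, 34 windows in all. Only the Syn1 window had a match, which the allowance chosen after seeing it made certain. Over all 32851 windows the share was 0.0365%, so this contrast is a description and not a test. The cAMP response element was searched as TGACGTCA, which reads the same on both strands. It was found at -159 to -152 in Syn1 and in no other member's window, against 1.79% of all windows. A match is a run of letters and not a measured binding site.

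The vesicular transmitter transporters had the median difference closest to 0 of the role groups, at -0.02. All 3 were dim, with list means of 6.5 to 6.7 on the arrays, below the array medians. In pair 3 all 3 were below 0, with a median of -0.16. Slc17a6 (VGLUT2), which loads glutamate, read 6.01, 5.90 and 5.73 in Sirt1 inactive cultures, against 5.96, 5.96 and 6.10 in control. It differed by -0.13 (SE 0.09), with overlapping groups and values near the lower quartile of the arrays. Without control replicate 3 it was -0.08, and in pairs 1 and 2 alone -0.0043. Slc32a1 (VGAT), which loads GABA and glycine, read 7.05, 7.03 and 7.001 in Sirt1 inactive cultures, against 7.06, 6.93 and 7.16 in control, a difference of -0.02 (95% interval -0.20 to 0.15). The glutamate transporter Slc17a7 (VGLUT1) differed by 0.01 (95% interval -0.13 to 0.15). Changes within these intervals remain possible with 3 cultures per genotype, and the intervals are not a limit of detection.

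The median of the 3 retrieval genes was -0.29, or -0.10 without control replicate 3. Snap91 (AP180), a neuronal clathrin adaptor, read 8.85, 8.85 and 9.24 in Sirt1 inactive cultures, against 8.78, 9.38 and 10.19 in control. The control cultures spanned the whole range of both groups. Its difference of -0.47 (SE 0.32; limma, adjusted p = 0.959) was -0.10 without control replicate 3. Amph, the curvature-sensing amphiphysin, read 10.27, 10.13 and 10.45 in Sirt1 inactive cultures, against 10.36, 10.49 and 10.87 in control. Each pair had the same direction, with -0.09, -0.35 and -0.42, while the groups overlapped. The difference was -0.29 (SE 0.14; limma, adjusted p = 0.959, and 0.656 with the block), or -0.14 without control replicate 3. Dnm1, the neuronal dynamin that pinches vesicles off, differed by -0.06.

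**Figure D3:**
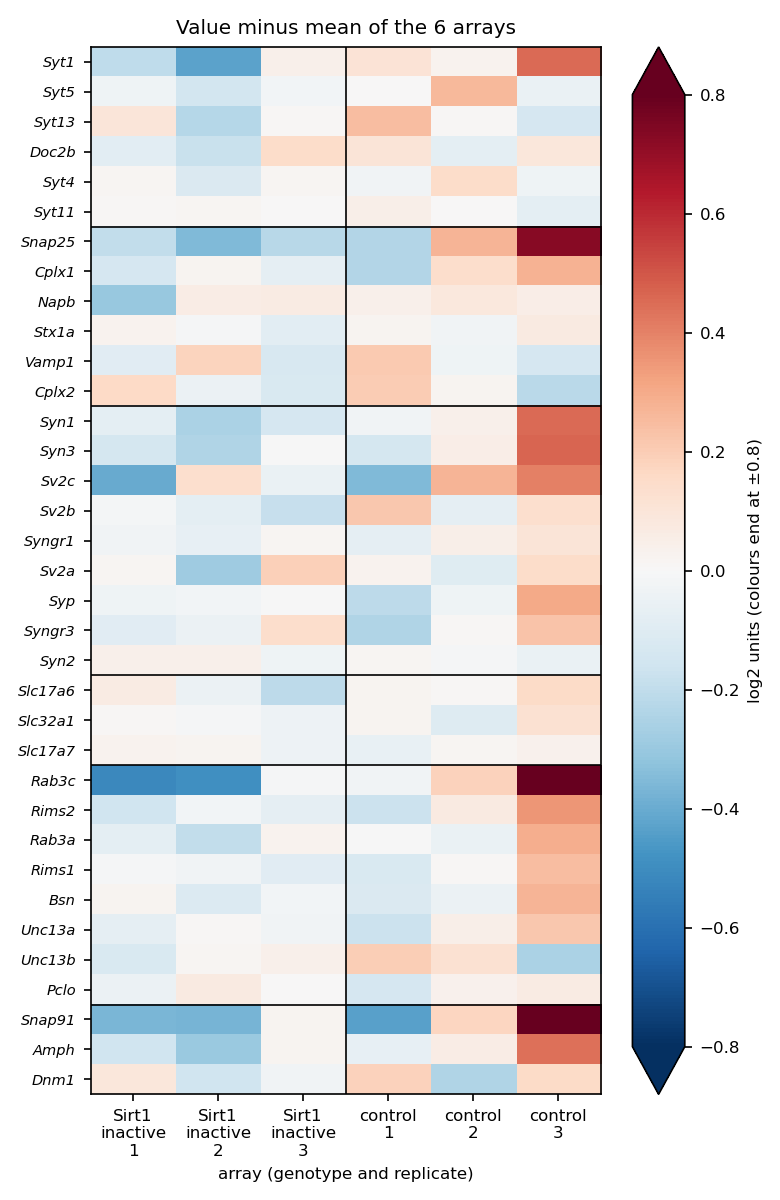
Value of each release machinery gene minus its mean over the 6 arrays, in log2 units, with genes grouped by role between black lines and Sirt1 inactive arrays left of control arrays. The control replicate 3 column is the reddest, being the highest array for 21 of 35 genes, while the calcium sensors other than Syt1 do not share this.

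A single control culture stood highest for most of the set. Control replicate 3 had the highest value of 21 of 35 members, or 60.0%, against 37.2% of all tested probe sets, while Sirt1 inactive replicate 2 and control replicate 1 each had the lowest of 11, or 31.4%, against 22.4% of all probe sets for that Sirt1 inactive array and 17.4% for that control array. The standard deviation was larger among control than among Sirt1 inactive cultures for 28 of 35 members, or 80.0%, against 60.0% of all probe sets. Its median over members was 0.09 in Sirt1 inactive and 0.19 in control cultures, and over all probe sets it was 0.08 in Sirt1 inactive and 0.10 in control cultures.

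The count of members below 0 was not the same in each pair of cultures. In pair 1, 19 of 35 members were below 0, or 54.3%, the same share as for all probe sets, 54.3%, with a median of -0.01. In pair 2 the count was 26, or 74.3% against 52.3%, with a median of -0.09 against -0.01. In pair 3 it was 24, or 68.6% against 62.6%, with a median of -0.18 against -0.05. Across the 3 pairs 8 members were below 0 in each, or 22.9% against 20.7% of all probe sets. These were Syt1, Syn1, Syn3, Sv2b, Sv2c, Rab3a, Rab3c and Amph, and for Syn3 the cultures of pair 1 were level to 3 decimals.

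**Figure D4:**
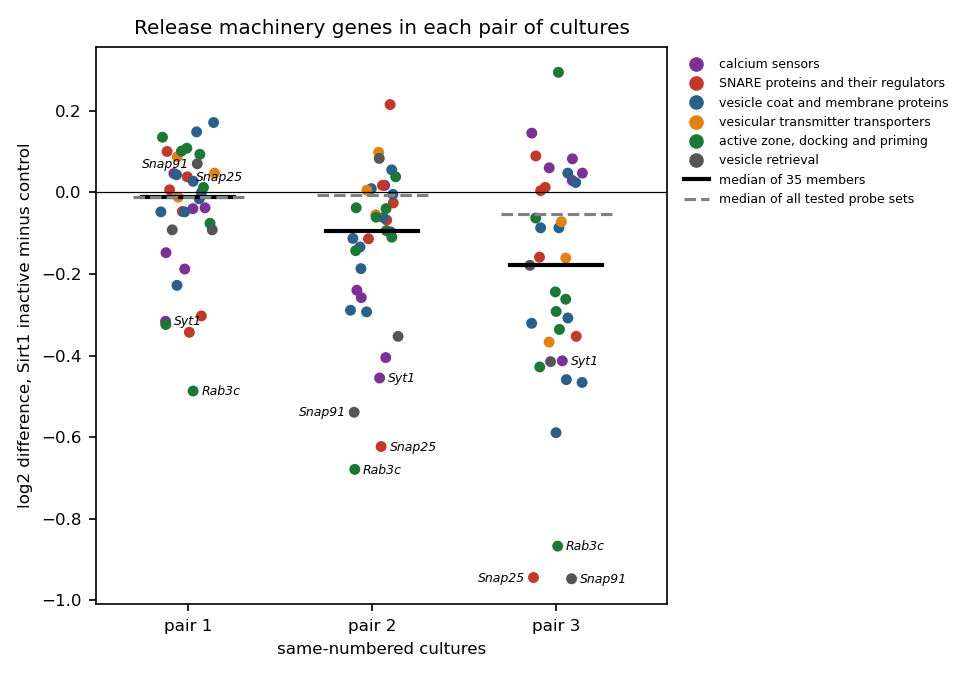
Log2 difference of each release machinery gene within each same-numbered pair of cultures, Sirt1 inactive minus control, coloured by role; black bars are medians over the 35 genes and dashed bars medians over all tested probe sets. The members' median is -0.01 in pair 1, -0.09 in pair 2 and -0.18 in pair 3, and Rab3c is among the lowest points in each.

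Other genes of release and recycling were examined beside the set. Of 68 listed genes outside the set, 64 were measured. Of these 50 were below 0, or 78.1%, against 60.1% of all tested probe sets. Their differences ran from -0.49 to 0.16, with a median of -0.06 against -0.02. None passed (limma, smallest adjusted p = 0.959), and 3 had an unadjusted p under 0.05, all lower, beside the 2.63% of all probe sets given above. With the replicate block 7 did, all lower, beside 5.08% of all probe sets. The standard deviation was larger in control for 59.4% of the 64 genes, against 60.0% of all probe sets. Control replicate 3 was highest for 45.3%, against 37.2% of all probe sets. The groups did not overlap for 6 of the 64, all lower, beside 6.71% of all probe sets. Erc2, an active zone scaffold that binds RIM, read 7.35, 7.23 and 7.43 in Sirt1 inactive cultures, against 7.59, 7.52 and 8.01 in control, a difference of -0.37 (SE 0.13) and -0.22 without control replicate 3. The other five were beta-synuclein (Sncb, -0.15), the synaptotagmin Syt10 (-0.13), the liprin Ppfia4 (-0.11), the priming factor Unc13c (-0.09) and endophilin Sh3gl1 (-0.02). The largest difference above 0 was 0.16 for Snap23, a widely expressed relative of Snap25 named here after its values were seen.

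Marker genes of several cell types also differed between the arrays. Neuronal genes outside the synapse were below 0 for 14 of 20, or 70.0% against 60.1% of all probe sets, with a median of -0.13. That 60.1% is also the background for the counts over all arrays of the other marker lists below. In pairs 1, 2 and 3 the counts were 9, 17 and 15, against 54.3%, 52.3% and 62.6% of all probe sets. The neuronal genes had medians of 0.04, -0.18 and -0.13 in these pairs. Their mean level lay between 7.92 and 8.03 in Sirt1 inactive and between 8.04 and 8.23 in control cultures. These list means did not overlap, and the highest was in control replicate 3. The same held for the mean over all tested probe sets, at 7.92 in each Sirt1 inactive culture and 7.93 to 7.95 in control. Gap43, a growth cone protein, differed by -0.31, or -0.22 without control replicate 3. Dcx, which binds microtubules in young neurons, differed by -0.31, or -0.17 without that array. Neither gene's groups overlapped, and neither passed (limma, adjusted p = 0.959 for both). In this list 3 of 20 genes were lower without overlap, beside 6.71% of all probe sets. Of the 20 neuronal genes 2 had an unadjusted p under 0.05, both lower, beside 2.63% of all probe sets. With the replicate block 4 did, all lower, beside 5.08% of all probe sets. Other genes of this list, named after their values were seen, ran differently. Calb2, a calcium-binding protein of some interneurons and young neurons, differed by -0.67, or -1.09 without control replicate 3, which was its lowest control. Stmn2, a microtubule regulator of growing neurites, differed by -0.26, or -0.70 without that array, again its lowest control. In pairs 1 and 2 alone with the block both passed. Calb2 differed by -1.08 (limma, adjusted p = 0.0238) and Stmn2 by -0.78 (limma, adjusted p = 0.0334). That fit rests on 2 cultures per genotype and leaves out pair 3, where both were above 0, Calb2 at 0.15 and Stmn2 at 0.80. With all arrays neither passed (limma, adjusted p = 0.959 for Calb2 and 0.964 for Stmn2). The neurofilament genes Nefm and Nefl differed by 0.24 and 0.16, and Tbr1, a transcription factor of excitatory neurons, by -0.13 with no overlap. Astrocyte markers ran the other way, with 9 of 10 above 0 and a mean level of 10.91 to 11.01 in Sirt1 inactive against 10.21 to 10.96 in control cultures, lowest in control replicate 3. Without that array 5 of 10 astrocyte markers and 14 of 20 neuronal genes were below 0, beside 53.7% of all probe sets. The mean level of 9 neural stem cell markers was 10.84 to 10.93 in Sirt1 inactive and 10.83 to 10.90 in control cultures. Oligodendrocyte progenitor markers, 4 of 8 below 0, had mean levels of 9.52 to 9.70 in Sirt1 inactive and 9.31 to 9.43 in control cultures, with no overlap. The 4 above 0 were Pdgfra (0.79), Gpr17 (0.75), C1ql1 (0.44) and Sox10 (0.28). Each was higher without overlap, beside 2.62% of all probe sets, and had an unadjusted p under 0.05 (limma), beside 0.984%. None passed after adjustment. The 4 below 0, all with overlapping groups, were Olig2 (-0.15), Nkx2-2 (-0.15), Cspg4 (-0.12) and Olig1 (-0.07). The marker lists were chosen with earlier results of these data known, so these counts are a description and not a test. Myelinating oligodendrocyte markers, 7 of 7 below 0, had 9.14 to 9.31 in Sirt1 inactive and 9.18 to 9.42 in control cultures. Microglia markers, 7 of 8 below 0, had 7.01 to 7.03 in Sirt1 inactive and 7.05 to 7.14 in control cultures. These did not overlap either, as was so for the mean over all tested probe sets. Fibroblast and mural markers, 3 of 8 below 0, had 8.13 to 8.25 in Sirt1 inactive and 7.52 to 8.38 in control cultures, lowest in control replicate 3, and endothelial markers, 5 of 8 below 0, had 6.74 to 6.81 in Sirt1 inactive and 6.73 to 6.82 in control cultures. The part of cell makeup in the differences of the release genes was not tested.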

How the data were processed

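Total RNA of 6 cultures was labelled as biotinylated sense-strand DNA and hybridised to 1-colour Affymetrix whole-transcript arrays, per the labels' protocols. The authors deposited log2 expression values adjusted and normalized by RMA, per the submitters' processing notes; the log2 scale was read from the values. The sources used here name no RMA version and no genome build. Of 34760 probe sets, 21640 are paired with 1 gene by GEO's platform annotation and 1321 with several; these 22961 were tested. The RefSeq gene table of GRCm38.p6 held the Entrez identifiers of 21553 probe sets and changed 0 symbols. No column (0) lacked a matching sample.

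The genotype effect was estimated from all 6 arrays by lmFit and eBayes of limma 3.58.1 (R 4.3.3), two-sided, with Benjamini-Hochberg adjustment over the tested probe sets and a threshold of 0.05. Exact permutation tests used scipy 1.17.1. The number of arrays limits the precision: over the members the SE had a median of 0.12 and the 95% interval a median half-width of 0.28. The fit was tested on simulated data. Same-numbered cultures deviated together from their group means (Pearson r across probe sets of 0.47, 0.358 and 0.27 for numbers 1, 2 and 3), so the fit with the replicate number as a block is given where it moved a count. The other alternatives are left-out arrays, scaling, dim probe sets, all probe sets, gene means, array weights and the variance prior. Members, role groups and marker lists were chosen with earlier results of these data known. Every member is given; per-array values are given for the 2 of each role group with the smallest unadjusted p and for those whose groups do not overlap, and among other release genes those without overlap are named.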

Additional observations from a re-analysis of the deposited data

How the results depend on the processing

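Of 511 member differences recomputed under the 15 alternatives 461 kept their direction. Many of these could not change. The replicate block over all arrays, all probe sets of the table and the variance prior left every member's difference as it was. So did dropping dim probe sets for the members kept, and gene means for all but Unc13a. The count is therefore a weak check of direction. No member passed the adjusted threshold under any alternative. The smallest adjusted p was 0.092 (limma), for Rab3c with the replicate block in pairs 1 and 2 alone. Over all tested probe sets 0 passed, except in that fit, where 19 did. Among them were the neuronal genes Calb2 and Stmn2, both above 0 in the pair left out. The count of probe sets at an unadjusted p under 0.05, 830, was 1741 with the replicate block, 1972 with the block without both arrays of number 3, 1376 over all probe sets of the table, 312 without dim probe sets, and 456 to 1453 when 1 array was left out. Members at an unadjusted p under 0.05, 3 in all, numbered 8 with the block, 5 with the block without number 3, 0 without dim probe sets, and 0 to 10 with 1 array left out, with 10 when control replicate 1 and 0 when either Sirt1 inactive replicate 1 or 2 was missing. Members without overlap, 1 in all, numbered 2 when probe sets were averaged per gene, 11 with number 3 left out and 1 to 13 with 1 array left out, as fewer arrays overlap less. The share of all probe sets without overlap is not given for these settings, so these counts are not read as a result. Without dim probe sets 21 members were left, 19 of them below 0, and 29 other release genes were below 0. The share of members below 0 was 82.9% with array medians subtracted, against 48.9% of all probe sets, and 74.3% with array weights, against 55.9%.

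Of the 35 members 19 changed sign under at least 1 alternative, none of which differed by more than the -0.12 of Napb; the cause was not tested. Array weights gave Doc2b 0.0372, Syp 0.0116, Syngr3 0.0503, Sv2a 0.0841, Slc17a7 -0.0101, Slc32a1 0.0353 and Dnm1 0.0881. With number 3 left out and the block kept, the values were Syt11 -0.0113, Stx1a 0.0113, Syp 0.0901, Syngr3 0.0434, Slc32a1 0.0432, Rims1 0.0336, Bsn 0.0369 and Unc13a 0.0313. Subtracted medians gave Cplx2 0.0157 and Syngr3 0.0245, and renewed quantile normalization gave Syngr3 0.0022. With 1 array left out the ranges were -0.1249 to 0.0697 for Vamp1, -0.1829 to 0.0035 for Napb, -0.1192 to 0.1134 for Syngr3, -0.0217 to 0.0272 for Slc17a7, -0.1851 to 0.041 for Unc13b, -0.1689 to 0.0214 for Syt13, -0.1178 to 0.0918 for Cplx2, -0.1614 to 0.0785 for Sv2a, -0.0404 to 0.0621 for Pclo, -0.1996 to 0.0128 for Dnm1, -0.0855 to 0.0034 for Syt4, -0.0151 to 0.0492 for Syt11, -0.1569 to 0.0986 for Syp, -0.0834 to 0.03 for Slc32a1, -0.1719 to 0.0099 for Rims1, -0.149 to 0.045 for Bsn and -0.1603 to 0.0309 for Unc13a.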
